A study of Mus musculus with 5 samples.

Results

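The miR-30 family is a set of microRNAs that share the same seed, the short stretch near the 5′ end through which a microRNA pairs with its target messages. Its levels were followed through injury and repair of mouse skeletal muscle by TaqMan RT-PCR. The members were the 5 assays whose names, once the species prefix and the assay number were removed, read miR-30a, miR-30b, miR-30c, miR-30d and miR-30e. They were 5 of the 217 miRNAs measured.

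The mice were C57BL/6J males aged 4 to 6 months, and the tissue was tibialis anterior, a muscle of the lower hind leg. Cardiotoxin, a venom peptide that lyses myofibres and spares the satellite cells that rebuild them, was injected (100 µl at 2.5 µM) into the anterior compartment of both hind limbs. Muscles of 4 mice per time point were taken 1, 3, 4, 7 or 21 days later, and uninjected muscles gave the baseline; days 2 and 5 of the study's course are not analysed here. Each arm had 4 values per assay, and the files do not tie values to single mice. P-values therefore measure the spread between these values, which may be partly technical. Injection of vehicle alone is not among the arms analysed here, so the effects of toxin and of the injection itself cannot be told apart. The tissue was whole muscle, in which fewer cells of a type and less RNA per cell cannot be told apart.

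As background, miRNAs load into Argonaute proteins and lower the stability and translation of messages that match their seed. The miR-30 family is broadly expressed, is abundant in differentiated tissues such as heart and skeletal muscle, and has been studied for its effects on fibrosis, apoptosis and differentiation. Its members come from several hairpins, some of them close neighbours in the genome, and differ from each other mainly in the 3′ part of the mature strand. The question posed by the time course was how miRNA levels change while injured fibres are lost and new ones form.

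The mature strands below are shown because the seed is what the members share and the 3′ bases are what separates them. The RefSeq miRNA table (GRCm38.p6) held miR-30a, miR-30c and miR-30e, and those entries are printed 5′ to 3′ with the seed, bases 2 to 8, in capitals. miR-30b and miR-30d are named only. miR-384-5p, a miRNA outside the family by name, is printed because its assay was also measured and its seed is the same.
miR-30a-5p: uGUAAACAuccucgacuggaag
miR-30c-5p: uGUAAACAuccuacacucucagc
miR-30e-5p: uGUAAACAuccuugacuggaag
miR-384-5p: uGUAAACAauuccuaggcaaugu

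Counted from 1 at the 5′ end, miR-30a-5p and miR-30e-5p were identical at 21 of 22 positions and differed by C13U, with the miR-30a base first. miR-30c-5p matched miR-30a-5p at 17 of the 22 positions compared and also matched miR-30e-5p at 17 of 22, with the first difference at position 13 in both cases. miR-384-5p left the family sequence at position 9, directly after the seed. Whether each assay also reads its near-identical relatives is not given in the sources used here. Among the strands printed above this matters most for miR-30a and miR-30e. How close miR-30b and miR-30d are to the others was not compared, so the same limit may hold for them.

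In GRCm38.p6, miR-30a-5p lay at chr1:23272274-23272295 on the plus strand, and miR-30e-5p lay at chr4:120772660-120772681 on the minus strand. miR-30c-5p had a pair of source hairpins, Mir30c-2 with its mature strand at chr1:23291714-23291736 (plus strand) and Mir30c-1 with its mature strand at chr4:120769584-120769606 (minus strand). miR-384-5p lay at chrX:105344332-105344354 on the minus strand. The gene table of the same build put Mir30a and Mir30c-2 on chromosome 1, with no other gene spanning them. Mir30e and Mir30c-1 lay on chromosome 4 within the span of Nfyc, which encodes a subunit of the transcription factor NF-Y. Mir30b and Mir30d lay on chromosome 15, again with no gene spanning them. The hairpins of miR-30c are printed with the mature strand in capitals, because both end in the same mature sequence and the assay for miR-30c cannot tell them apart.
Mir30c-1: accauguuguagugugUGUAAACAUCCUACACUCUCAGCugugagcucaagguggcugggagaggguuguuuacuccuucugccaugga
Mir30c-2: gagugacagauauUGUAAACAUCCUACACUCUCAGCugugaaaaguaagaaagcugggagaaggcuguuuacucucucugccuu

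Levels were recorded as the threshold cycle, or Ct, which counts the PCR cycles needed before fluorescence crosses a threshold. A higher Ct stands for less template, and 1 cycle corresponds to 1 log2 unit at full efficiency. Ct values of different assays are not comparable as levels, and each member is therefore compared only with itself across arms, or by its change. All 120 values of the 5 members lay between 13.08 and 21.58, and 0 reached the detection limit of 35 used here. The median SD of a member's 4 Ct values within an arm was 0.253 cycles. The median SD of the difference between 2 members, taken value by value in file order, was 0.181.

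Beside the tissue label were set miRNAs enriched in muscle fibres, of which 5 of 7 listed were measured. At baseline miR-133a had Ct 9.19 to 9.59 and miR-1 had Ct 12.48 to 13.14, miR-133b lay between 14.62 and 15.42, and miR-486 and miR-499 lay between 25.84 and 27.92. All of them were detected in uninjected muscle. Of the 217 miRNAs measured, 205 were detected in every reaction, so detection alone is no check of the tissue.

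The Ct values of the 5 control RNAs did not stay level, and a change of control RNA shifts every miRNA of an arm by the same amount. Changes are therefore given as log2 relative to the median miRNA, for which each value is set against the median change of 205 miRNAs detected in every reaction, and U6, the endogenous control marked in the files, serves as the second scaling. "Fell" and "rose" are used only where limma's adjusted p was under 0.05 with each of these normalizers. Relative to U6 the median of the 205 miRNAs was shifted by -1.93 on day 1, -1.17 on day 3, -0.63 on day 4, -0.05 on day 7 and -0.11 on day 21. Relative to Y1, another control RNA, the shift was 2.72 on day 1 and between 0.34 and 1.27 on the later days.

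miR-30c, the member with the largest decrease at every time point, had baseline Ct values of 13.49, 13.48, 13.14 and 13.08. On day 1 its values were 15.47, 15.69, 14.95 and 15.72, on day 3 they were 16.68, 16.5, 16.22 and 16.97, and on day 4 they were 16.51, 16.07, 16.96 and 16.56. On day 7 its values were 15.37, 15.63, 15.52 and 16.1, and on day 21 they were 14.78, 14.64, 14.6 and 14.8. Every injured value lay above every baseline value, and the 4 values of day 21 were the closest to baseline.

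miR-30b gave 14.27, 14.13, 13.97 and 13.82 at baseline. It gave 15.64, 15.84, 15.46 and 15.88 on day 1, 16.59, 16.54, 16.45 and 16.63 on day 3 and 16.41, 16.21, 16.75 and 16.65 on day 4. It gave 15.72, 15.6, 15.63 and 16.18 on day 7 and 15.01, 14.88, 15.13 and 15.14 on day 21. The values of days 3 and 4 overlapped each other and lay above all values of baseline and of days 1, 7 and 21.

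For miR-30a the baseline values were 16.75, 16.39, 16.27 and 16.14. They were 17.11, 17.31, 17.02 and 17.19 on day 1, 18.64, 18.2, 17.96 and 18.38 on day 3 and 18.73, 18.18, 19.13 and 18.72 on day 4. They were 17.94, 18.23, 18.22 and 18.42 on day 7 and 17.17, 16.88, 17.1 and 16.9 on day 21. Days 3, 4 and 7 overlapped each other, and days 1 and 21 overlapped each other at a lower Ct that was still above baseline.

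miR-30e, 1 base away from miR-30a, read 17.08, 17.1, 16.86 and 16.75 at baseline. It read 18.24, 18.06, 17.4 and 18.01 on day 1, 19.75, 19.2, 18.92 and 19.46 on day 3 and 19.67, 19.01, 20.13 and 19.51 on day 4. It read 18.64, 19.19, 19.03 and 19.11 on day 7 and 18.22, 17.95, 17.97 and 17.84 on day 21. The injured values were again all above baseline, and those of days 1 and 21 overlapped.

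miR-30d had 19.95, 19.86, 19.59 and 19.36 at baseline. It had 20.4, 20.68, 19.94 and 20.51 on day 1, 21.0, 21.08, 20.46 and 21.18 on day 3 and 21.42, 21.08, 21.58 and 21.12 on day 4. It had 20.53, 20.95, 21.03 and 21.19 on day 7 and 20.37, 20.42, 19.98 and 20.17 on day 21. One value of day 1, at 19.94, lay within the baseline range, the only overlap of raw Ct with baseline among the 5 members and 5 time points. Relative to the median miRNA, the scale described above, each member lay below baseline without overlap at each time point, as did 35.1% of 205 miRNAs on day 1, 40.5% on day 3, 40.5% on day 4, 42.0% on day 7 and 34.6% on day 21.

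**Figure D1:**
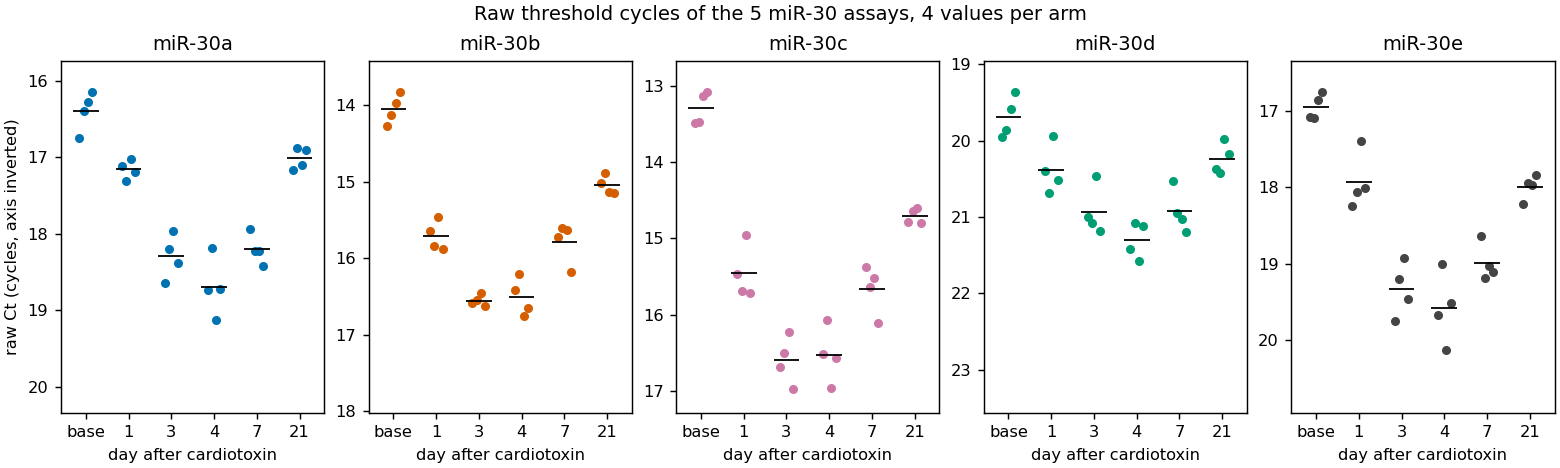
Raw Ct of the 5 miR-30 assays (vertical axis in cycles, inverted so that more template is higher) by arm (horizontal axis, base for uninjected muscle, then days after cardiotoxin). Points are the 4 values of an arm and bars their mean; the means of days 3 and 4 lie lowest in each panel, and only miR-30d on day 1 has a point within its baseline range.

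On day 1 all 5 members fell, to between 2.11-fold and 5.83-fold below baseline relative to the median miRNA, although relative to Y1 the direction was the opposite for all 5. miR-30c changed by -2.54 ± 0.17 (SE, n = 4 values per arm; adjusted p = 1.33e-11, limma) and by -4.45 relative to U6. miR-30b changed by -2.04 ± 0.15 (-3.95 relative to U6), miR-30e by -1.36 ± 0.18 (-3.27), miR-30a by -1.15 ± 0.16 (-3.06) and miR-30d by -1.08 ± 0.14 (-2.99). Of the 211 miRNAs tested on that day 38.9% fell by the same rule, and the median change was -1.36 for the 5 members and -0.04 for all tested. With Y1 as the normalizer, whose mean Ct went from 20.3 to 22.7 between baseline and day 1, the same 5 changes were 0.19 for miR-30c, 0.69 for miR-30b, 1.37 for miR-30e, 1.58 for miR-30a and 1.66 for miR-30d. The direction on day 1 therefore depended on whether Y1 was used; U6, snoRNA135, snoRNA202, U87 and raw Ct gave 5 of 5 lower.

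On day 3 the decrease had deepened to 16.0-fold for miR-30c, at -4.00 ± 0.17 and -5.13 relative to U6. miR-30b stood at -3.21 ± 0.15 (-4.34 relative to U6), miR-30e at -3.09 ± 0.18 (-4.21), miR-30a at -2.62 ± 0.16 (-3.74) and miR-30d at -1.95 ± 0.14 (-3.07). All 5 fell, beside 41% of the 212 miRNAs tested. Relative to day 1 the 5 changes lay between -1.73 and -0.87, and all 5 passed relative to the median miRNA. Only miR-30e passed under both scalings (-1.73, and -0.94 relative to U6 with adjusted p = 0.049, limma), when 13.1% of 213 miRNAs fell by that rule.

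Relative to the median miRNA, day 4 had the lowest median of the family, -3.40 against 0.06 for all miRNAs tested. Relative to U6 the family median was lowest on day 3, at -4.215, and stood at -4.075 on day 4. miR-30c was 18.0-fold below baseline (-4.17 ± 0.17; -4.85 relative to U6), miR-30e 11.9-fold (-3.58 ± 0.18; -4.25) and miR-30b 10.6-fold (-3.40 ± 0.15; -4.08). miR-30a was 9.49-fold below baseline (-3.25 ± 0.16; -3.92) and miR-30d 5.87-fold (-2.55 ± 0.14; -3.23). All 5 fell, beside 41.3% of 213 miRNAs. Counted from the largest decrease, miR-30c was 3rd of the 213 tested miRNAs, miR-30e 6th, miR-30b 8th, miR-30a 12th and miR-30d 23rd.

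On day 7 all 5 members were still lower than baseline, as were 35.7% of 213 miRNAs. The changes were -3.55 ± 0.17 for miR-30c, -3.24 ± 0.18 for miR-30e, -3.01 ± 0.16 for miR-30a, -2.93 ± 0.15 for miR-30b and -2.43 ± 0.14 for miR-30d, and relative to U6 they lay between -3.64 and -2.52. By rank from the largest decrease, miR-30c was again 3rd and miR-30e 6th.

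Calls for the steps between days 3, 4 and 7 depended on the scaling. Between days 3 and 4, 0 of 5 members passed under both scalings, and 1.85% of 216 miRNAs fell. Relative to the median miRNA miR-30a (-0.63), miR-30d (-0.61) and miR-30e (-0.48) passed, and relative to U6 none did. Between days 4 and 7, 0 of 5 passed under both scalings, and 16.1% of 217 miRNAs rose. miR-30c (0.62) and miR-30b (0.47) passed relative to the median miRNA, and none passed relative to U6.

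Between days 7 and 21 all 5 members rose, by 3.33-fold to 4.70-fold. miR-30a changed by 2.23 ± 0.16 (adjusted p = 6.06e-10, limma), miR-30e by 2.04 ± 0.18, miR-30c by 1.99 ± 0.17, miR-30b by 1.79 ± 0.15 and miR-30d by 1.73 ± 0.14. The changes relative to U6 were close to these, between 1.71 and 2.21. Of 216 miRNAs tested, 19.4% rose over the same interval.

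On day 21, 3 of 5 members were still lower than baseline under both scalings, beside 19.2% of 213 miRNAs. miR-30c stood at -1.56 ± 0.17 (2.94-fold below; -1.68 relative to U6, adjusted p = 0.00306, limma), miR-30e at -1.20 ± 0.18 (-1.32, adjusted p = 0.00759) and miR-30b at -1.14 ± 0.15 (-1.26, adjusted p = 0.0321). miR-30a stood at -0.77 ± 0.16 and miR-30d at -0.69 ± 0.14, and both passed relative to the median miRNA. With U6 as the normalizer they stood at -0.90 (adjusted p = 0.101) and -0.82 (adjusted p = 0.108), and some of their day 21 values overlapped baseline on that scale. Relative to Y1 the directions of miR-30a (0.30) and miR-30d (0.38) were the opposite.

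**Figure D2:**
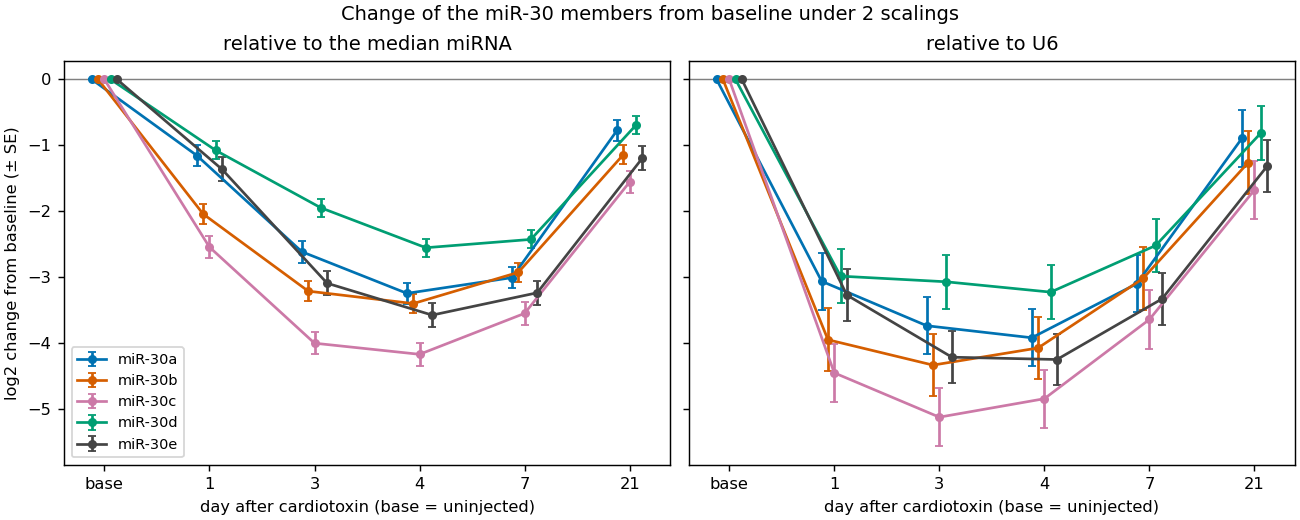
Change of each miR-30 member from baseline (log2, vertical axis) by day after cardiotoxin (horizontal axis), relative to the median miRNA (left) and to U6 (right). Points are means of 4 values and bars the standard error from the limma fit; all 5 members are below 0 at each time point in both panels (on day 1 they would be above 0 relative to Y1), miR-30c is lowest and miR-30d highest from day 3 to day 7, and the error bars relative to U6 are wider.

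Arranged by level relative to the median miRNA, miR-30a, miR-30d and miR-30e were lowest on day 4, followed by days 7, 3, 1 and 21 and baseline. For miR-30b and miR-30c the order was day 4, day 3, day 7, day 1, day 21 and baseline. Most neighbouring arms in these orders were not called apart under both scalings. Day 21 was above day 1 for miR-30a, miR-30b, miR-30c and miR-30d but not for miR-30e (0.17, adjusted p = 0.395, limma). Relative to U6 alone miR-30e passed as well (1.955, adjusted p = 4.57e-05, limma). Under Y1 the direction was the opposite, with day 21 below day 1 for each member. The share of all miRNAs that rose from day 1 to day 21, or from day 3 to day 7, was not counted. Baseline was above day 21 for miR-30b, miR-30c and miR-30e, day 7 above day 3 for miR-30c, and day 1 above day 3 for miR-30e.

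The members did not change by the same amount. The difference between the changes of 2 members does not involve a normalizer. It was taken value by value in file order, and the files do not say whether such values come from the same RNA. All 10 pairs were tested at the 5 time points by an exact two-sided permutation test of 4 against 4 values, adjusted over 50 tests. The smallest p this design allows is 0.0286, which after adjustment was 0.0376, and each pair called had these values. The numbers of pairs called were 7 of 10 on day 1, 9 on day 3, 8 on day 4, 7 on day 7 and 7 on day 21. Of these 38 calls, 35 also passed a moderated limma test of the pairs, and 32 passed it with any 1 value of the compared arms left out. How often pairs of other miRNAs differ was not counted, so whether the members differ more or less than other pairs is not known.

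miR-30c and miR-30d lay furthest apart. miR-30c lost 1.47 log2 units more than miR-30d by day 1 (a ratio of 2.77), 2.06 more by day 3 (a ratio of 4.16), 1.62 more by day 4, 1.12 more by day 7 and 0.86 more by day 21, and the pair was called on each day. In the exact test miR-30c was also called apart from each of the other 3 members on every day. Against miR-30b it was lower by 0.50 on day 1, 0.79 on day 3, 0.77 on day 4, 0.62 on day 7 and 0.41 on day 21. Against miR-30e it was lower by 1.18 on day 1, 0.91 on day 3, 0.59 on day 4, 0.31 on day 7 and 0.36 on day 21, and the last 2 of these did not pass the moderated limma test of the same pairs (adjusted p = 0.0864 on day 7 and 0.0505 on day 21).

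The near-identical miR-30a and miR-30e were called apart on 3 of 5 days in the exact test. miR-30e was lower than miR-30a, in change from baseline, by 0.48 on day 3, 0.33 on day 4 and 0.42 on day 21. The day 4 difference did not pass the moderated limma test (adjusted p = 0.0506). The gaps of 0.21 on day 1 (adjusted p = 0.325, exact permutation) and 0.23 on day 7 (adjusted p = 0.104) did not pass.

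The neighbours on chromosome 15, miR-30b and miR-30d, changed by different amounts. miR-30b was lower by 0.96 on day 1, 1.26 on day 3, 0.85 on day 4 and 0.50 on day 7, all called, and by 0.45 on day 21, which did not pass (adjusted p = 0.0714, exact permutation; 0.0343 by the limma test). miR-30e, which shares the Nfyc region with Mir30c-1, changed less than miR-30c on every day, as given above, but the assay for miR-30c also reads the product of Mir30c-2.

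miR-30b moved early relative to miR-30a and miR-30e. On day 1 it had changed by 0.68 more than miR-30e and by 0.89 more than miR-30a, both called. On day 3 it differed from miR-30a by 0.60 (called) and from miR-30e by 0.12 (adjusted p = 0.528, exact permutation). By days 4 and 7 its differences from miR-30a were 0.15 and 0.08 in size and those from miR-30e 0.17 and 0.31, and none of the 4 passed. On day 21 miR-30b was again lower than miR-30a, by 0.37 (called; adjusted p = 0.0384 by the limma test, which passed in 2 of 8 fits with 1 value left out). miR-30a and miR-30d were not called apart on day 1 or day 21 (0.08 in size on both days), and miR-30a was lower by 0.67 on day 3, 0.69 on day 4 and 0.58 on day 7, all called.

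**Figure D3:**
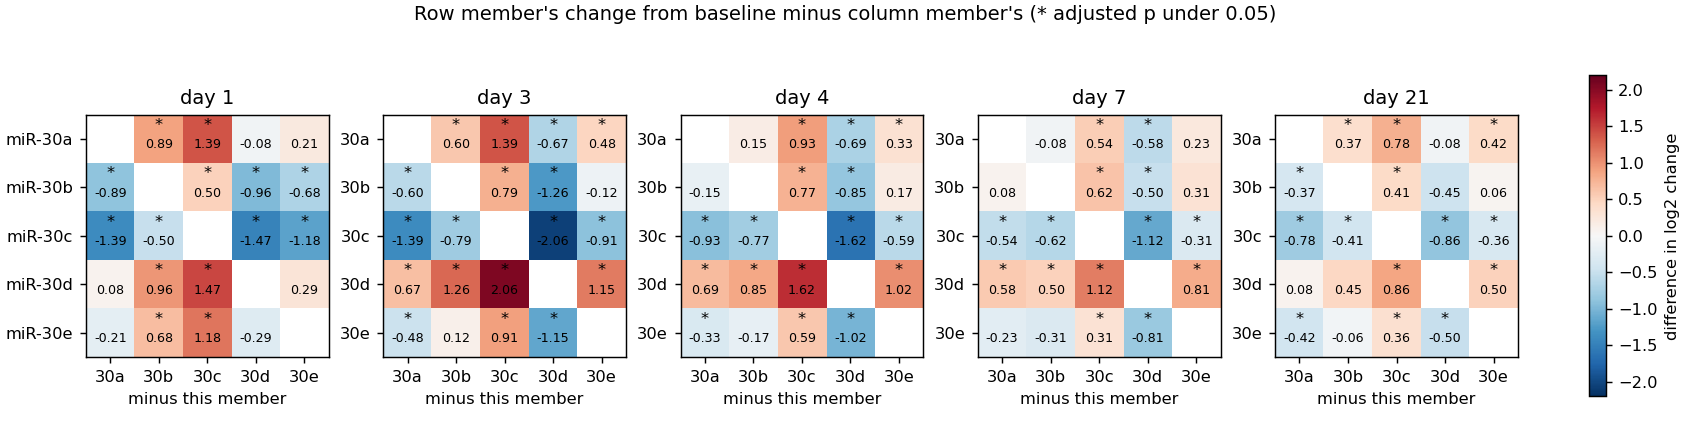
Difference between the changes of 2 miR-30 members from baseline (log2, row member minus column member, colour scale and printed value) at each time point. Asterisks mark an adjusted p under 0.05 in the exact permutation test over 50 tests; the row of miR-30c is negative against each other member on all 5 days, and the largest difference is 2.06 between miR-30d and miR-30c on day 3.

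miR-384-5p, which has the same seed, was set beside the family after its values were seen. Its mean Ct was 24.2 at baseline, 23.3 on day 1, 25.4 on day 3, 26.1 on day 4, 25.7 on day 7 and 24.8 on day 21. Its values on day 1 were 23.37, 23.58, 22.89 and 23.23, all below its baseline values of 24.13, 24.31, 24.16 and 24.04, whereas the mean raw Ct of each member was higher on day 1 than at baseline. Relative to the median miRNA it changed by 0.51 ± 0.21 on day 1 (-1.40 relative to U6, so that the scalings gave opposite directions). It fell on day 3 (-1.91), day 4 (-2.87), day 7 (-2.77) and day 21 (-0.82), although relative to Y1 the day 21 direction was the opposite.

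On day 1 the 5 members were lower in change than miR-384-5p by 1.59 to 3.05, with the smallest p the exact permutation test allows, 0.0286, which was 0.051 after adjustment over 25 member and day combinations. Of these 25 combinations, 0 passed after adjustment and 14 had an unadjusted p under 0.05, whereas 14 passed by the moderated limma test. By day 21 the 5 differences from miR-384-5p lay between -0.74 and 0.12.

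The miRNAs whose course was nearest to the family mean were found by the root mean square difference over the 5 changes from baseline, among 205 miRNAs. This is a description over 5 time points that share the same baseline values. The 5 nearest outside the family were miR-145 (0.227), a miRNA of smooth muscle, miR-101a (0.364), miR-345-5p (0.387), miR-26a (0.443) and miR-29c (0.507), a miRNA known for repressing collagen messages. The median over the miRNAs outside the family was 2.83. The members themselves stood at 0.190 for miR-30e, 0.218 for miR-30b, 0.307 for miR-30a, 0.717 for miR-30d and 0.774 for miR-30c. Their distances are smaller by construction, because each member is part of the family mean.

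The changes of miR-145 were -1.32 on day 1, -3.06 on day 3, -3.30 on day 4, -3.19 on day 7 and -1.41 on day 21. Those of miR-101a were -1.90, -2.67 (day 3), -3.13, -3.30 (day 7) and -1.67. Member by member, the nearest miRNA was miR-30e for miR-30a (0.350), miR-345-5p for miR-30b (0.231), miR-491 for miR-30c (0.433), miR-26b for miR-30d (0.205) and miR-145 for miR-30e (0.162). For 4 of 5 members the nearest course belonged to a miRNA outside the family. Only 5 of the 205 miRNAs compared were members, so most possible neighbours lay outside it and the count does not measure likeness within the family. When likeness was measured by correlation instead, the 5 nearest were miR-10b, miR-195, miR-145, miR-218 and miR-204, and 1 of 5 names was shared.

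Muscle fibre miRNAs, such as miR-1 and the miR-133 pair, are enriched in striated muscle, and their course was set beside that of the family. The fibre miRNAs had medians of -3.06 on day 1, -5.98 on day 3, -3.95 on day 4, -1.77 on day 7 and -1.27 on day 21, lowest on day 3. miR-499 was over the detection limit on day 3, with Ct 35.97 to 37.01, and was not tested there. Between days 3 and 4, 4 of 4 tested fibre miRNAs rose (median 2.33), beside 21.3% of 216 miRNAs, and 0 of 5 miR-30 members did. miR-486 rose by 3.52 ± 0.57 and miR-133b by 3.23 ± 0.29.

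The difference between these groups from day 3 to day 4 was tested for each of the 20 combinations, chosen after the values were seen. The fibre miRNA exceeded the miR-30 member by 1.52 to 4.16 log2 units, and 17 of 20 passed the exact permutation test (adjusted p = 0.0336). The exceptions were miR-133a against miR-30b (adjusted p = 0.0857), miR-30c and miR-30d (adjusted p = 0.0602 for both, exact permutation). All 20 passed by the moderated limma test. The 20 combinations share the values of the same assays and are not independent. Over this interval the median change of all 216 miRNAs was -0.11, and the miR-30 members lay between -0.63 and -0.17. How often the fibre miRNAs exceed other miRNAs was not counted, so whether the difference is particular to the miR-30 family is not known.

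Other miRNA families were given the same description. Of all tested miRNAs, 38.9% fell on day 1, 41% on day 3, 41.3% on day 4, 35.7% on day 7 and 19.2% on day 21. miR-26a, miR-26b and miR-101a fell in 3 of 3 cases on days 1, 3, 4 and 7 (on day 1 relative to Y1 the direction was the opposite for all 3) and in 1 of 3 on day 21, with medians of -1.77, -2.67, -2.80, -2.31 and -0.94, and on day 4 they ranged from -3.13 (miR-101a) to -2.36 (miR-26b). The miR-29 family had medians of -0.37, -0.94, -1.51, -2.16 and -1.41, so its median was lowest on day 7. On day 4 miR-29c was at -3.24 and fell, while miR-29b was at 0.04 and did not pass. Of 9 let-7 and miR-98 assays, 5 fell on day 1 (all 5 opposite relative to Y1), 4 on day 3 (3 of them opposite relative to Y1), 4 on day 4 (let-7e opposite in raw Ct, at 0.02 log2 units), 4 on day 7 and 0 on day 21. Their medians lay between -0.69 and -0.16, and on day 4 they ranged from -1.41 (let-7d) to 2.97 (miR-98, which did not pass under both scalings).

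**Figure D4:**
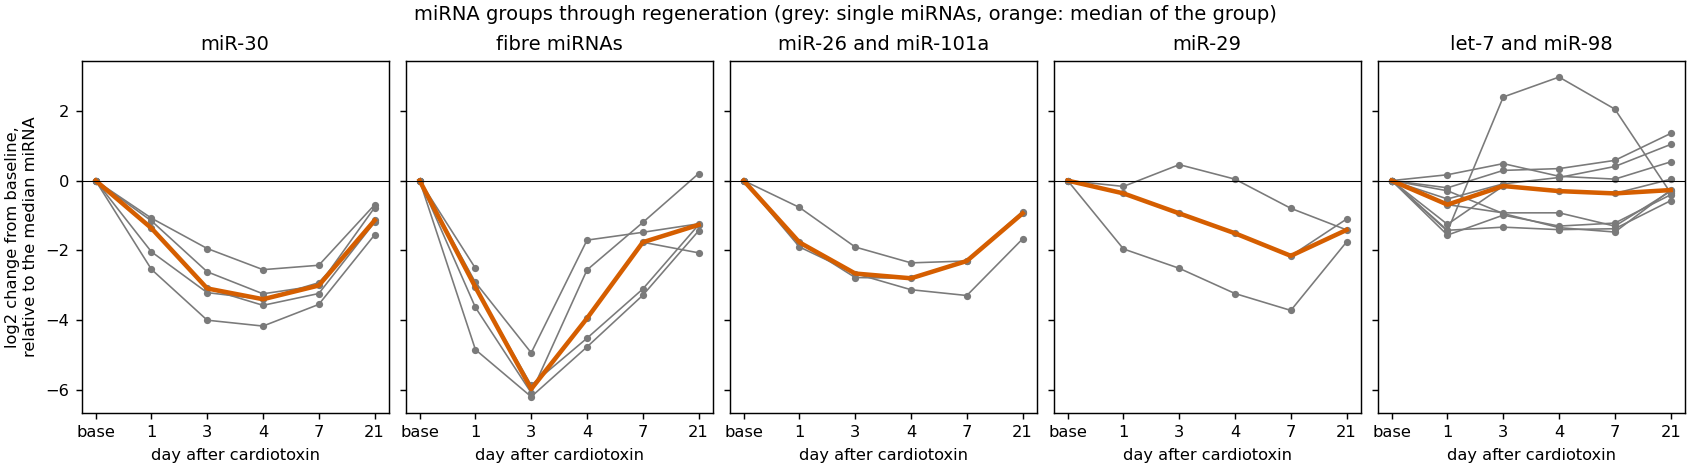
Change from baseline relative to the median miRNA (log2, vertical axis) by day after cardiotoxin (horizontal axis) for the miR-30 members, the fibre miRNAs, miR-26 with miR-101a, miR-29, and let-7 with miR-98. Grey lines are single miRNAs and the orange line the median of the group; relative to Y1 the day 1 values of the miR-30 members and of miR-26 and miR-101a would be above 0. The fibre miRNAs turn upward after day 3, while the miR-30 median is lowest on day 4, at -3.40. Relative to U6 the miR-30 median would be lowest on day 3, at -4.215 (-4.075 on day 4).

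Markers of other cell types moved at the same time points. On day 4, when 41.3% of 213 miRNAs fell and 25.4% rose, the endothelial miR-126-3p and miR-126-5p fell in 2 of 2 cases (-2.65 and -2.76), as did the smooth muscle miR-143 and miR-145 (-2.42 and -3.30). The erythroid miR-451 (-0.92) and the neuronal miR-9 (-0.90) and miR-128a (-1.06) fell as well, although in raw Ct miR-451 and miR-9 were at 0.0275 and 0.045. Of 6 haematopoietic miRNAs 3 rose and 2 fell, from miR-150 at -1.84 to miR-142-3p at 3.19, and on day 1 3 of 6 rose (9% of the 211 miRNAs tested did), with a median of 3.02 and miR-223 at 6.53. Of 4 fibroblast miRNAs 1 rose on day 4, from miR-199a-3p at 0.32 to miR-21 at 2.21. Of the 5 epithelial miRNAs tested 3 rose and 1 fell, from miR-203 at -1.17 to miR-200a at 6.30.

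On day 1 the endothelial markers did not pass relative to the median miRNA, at 0.16 for miR-126-3p and -0.02 for miR-126-5p. Both were lower relative to U6, at -1.75 and -1.93, and passed there. Among the smooth muscle markers only miR-145 had fallen under both scalings (-1.32, but 1.42 relative to Y1). By day 21 the endothelial markers were at -0.61 each and passed relative to the median miRNA. They did not pass relative to U6 (-0.735 for miR-126-3p and -0.73 for miR-126-5p). The part of these cell types in the change of the miR-30 family was not tested.

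Mean U6 Ct was 14.8 at baseline, 12.5 on day 1, 13.2 on day 4, 13.6 on day 7 and 14.6 on day 21. Under each of the normalizers run, Y1 included, 5 of 5 members were lower than baseline on days 3, 4 and 7. Under Y1 4 of 5 were higher on day 1 (all but miR-30c passed), and 0 of 5 passed on day 21.

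**Figure D5:**
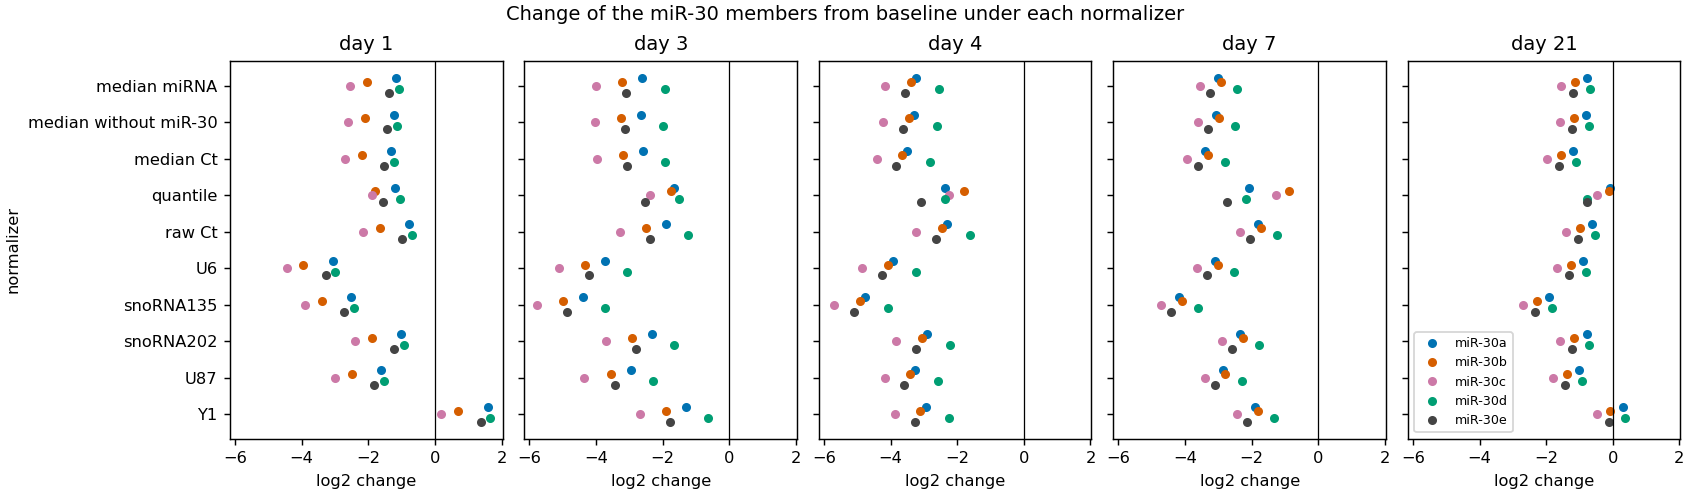
Change of the 5 miR-30 members from baseline (log2, horizontal axis) under each normalizer (rows) at each time point (panels). Points are means of 4 values per arm; on days 3, 4 and 7 all points lie below 0, and on day 1 the points lie above 0 relative to Y1, from 0.19 for miR-30c to 1.66 for miR-30d.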

How the data were processed

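Per the labels' protocols, a miRNeasy kit gave the RNA, samples had to exceed an integrity number of 9, and TaqMan assays ran for 40 cycles on a 7900HT instrument. The authors deposited raw Ct values, handled here as a score with no normalization, in 5 files with identical baseline values, which were used once. The files hold no sequencing depth, and the 4 values per arm limit the precision. The sources used here do not give threshold setting, RNA input, assay efficiency or the mouse of each value.

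A miRNA was tested where its Ct was under 35 in at least 3 of 4 values of both arms; values at 40 were left out. All 6 arms entered a single limma fit (version 3.58.1, R 4.3.3) with Benjamini-Hochberg adjustment over the miRNAs tested, two-sided. Pairs were compared with scipy 1.17.1. The fit was tested on simulated data. Named miRNAs were the 5 members, same-seed assays, control RNAs, the 5 miRNAs of nearest course, and the members of each list with the largest and smallest change on day 4. miR-491, miR-26b, miR-223 and both markers of small lists, and the miRNAs near by correlation, were added with their values in view. The members and lists were chosen with earlier results of these data known. Alternatives covered the normalizer, the reference miRNAs, Ct limits of 32, 38 and none, undetermined values set to 40, limma-trend, a fit of 2 arms, each value left out, and the order of values in an arm as a block.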

Additional observations from a re-analysis of the deposited data

Results flagged for a closer look

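Of 30 groups of 4 values examined for the members, 3 held a value whose gap to its nearest neighbour took an unusually large part of the group's range by Dixon's test, and chance gives about 1 in 20. These were value 4 of miR-30a on day 7 (ratio 0.856; -3.27 relative to the median miRNA, the others from -2.95 to -2.89), value 2 of miR-30b on day 21 (ratio 0.894; -0.93, the others from -1.23 to -1.20) and value 4 of miR-30c on day 7 (ratio 0.832; -4.04, the others from -3.44 to -3.31).

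Changes from baseline differed between successive time points for miR-30e from day 1 to day 3 (-1.73). From day 7 to day 21 they differed for miR-30a (2.23), miR-30b (1.79), miR-30c (1.99), miR-30d (1.73) and miR-30e (2.04). Each passed the limma test of the difference under both scalings.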

How the results depend on the processing

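For days 3, 4 and 7 against baseline and for day 21 against day 7, all 5 members kept their call under each alternative run. On day 1 the only exception was Y1, with 0 members lower and changes of 1.58 (miR-30a), 0.69 (miR-30b), 0.19 (miR-30c), 1.66 (miR-30d) and 1.37 (miR-30e). On day 21 the 5 members lower relative to the median miRNA became 3 with U6, 3 with quantile scaling and 0 with Y1, where miR-30a was at 0.30 and miR-30d at 0.38. From day 1 to day 3 the 5 lower became 1 with U6, and miR-30b was at 0.034 with quantile scaling. From day 3 to day 4 the 3 lower became 0 with U6, snoRNA135, U87 and raw Ct and 5 with Y1 and the median Ct. There, miR-30b and miR-30c stood at 0.26 and 0.28 (U6), 0.058 and 0.078 (snoRNA135), 0.15 and 0.17 (U87) and 0.048 and 0.068 (raw Ct), and miR-30c at 0.12 (quantile). From day 4 to day 7 the 2 higher became 0 with U6 and U87, 5 with snoRNA135, snoRNA202 and Y1, 4 with raw Ct, and 1 with the median Ct (miR-30d at -0.005) and with 2 arms in the fit. Leaving out 1 value gave 1 to 4, with 4 without value 2 of day 4 and 1 without value 2 or value 3 of day 7. The cause was not tested. The order of values in an arm as a block changed no count. The exact comparison with miR-384-5p went from 0 to 14 of 25 under the limma test. Pair counts kept within 1.5 times under the limma test. With 1 value left out, the exact test of 3 against 4 values cannot reach the adjusted threshold, and the limma test, added after seeing the data, gave 7 to 8 pairs on day 1, 9 on day 3, 7 to 8 on day 4, 5 to 6 on day 7 and 4 to 8 on day 21 (4 without value 1 of baseline).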
